A study of Drosophila melanogaster with 8 samples.

Results

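Insects shed the old cuticle at each moult through a stereotyped behaviour called ecdysis, and the adult fly leaves its pupal case the same way. The 7 genes described here belong to the signalling chain that drives this behaviour, and were taken by name from the deposited count files, out of 15141 genes in all. They encode eclosion hormone (Eh), crustacean cardioactive peptide (CCAP, written Ccap in the files), the bursicon subunits (burs and pburs), the receptor for ecdysis triggering hormone (ETHR), the CCAP receptor (CcapR) and the bursicon receptor rickets (rk). All 7 were found, and they were chosen by name with earlier results of these data known.

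Ecdysis triggering hormone, which is released by Inka cells on the tracheae, acts through ETHR on peptidergic neurons of the central nervous system. Eclosion hormone, made by a small group of ventromedial brain neurons, amplifies that release. CCAP and bursicon are made in overlapping sets of neurons, most of them in the ventral nerve cord and the subesophageal region. The burs and pburs proteins join into the bursicon heterodimer, which acts on rk, raises cyclic AMP and drives wing expansion and the hardening and tanning of new cuticle.

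Each library held RNA from 150 pooled pupal heads of Drosophila melanogaster staged at 73 to 90 h after the puparium forms, and each of 4 groups had 2 libraries. Loss of function was represented by the deletion allele dTDP-43-delta142 over the chromosomal deficiency Df(2R)106, here delta142/Df, and by dTDP-43-delta23 over delta142, here delta23/delta142. The gene dTDP-43 is listed as TBPH, the fly counterpart of the RNA-binding protein TDP-43. Gain-of-function libraries were labelled act5c>dTDP-43, an actin 5C driver with broad expression. Wild type was given as Canton S, w1118 in the titles and w1118 in the genotype field. Whether the paired libraries had separate parents is not stated, so the p-values reflect only how these libraries varied, which may be technical. Heads hold the brain but not the ventral nerve cord or the abdomen. In bulk RNA, fewer cells of a type and less RNA per cell cannot be told apart.

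Total counts were 716027 to 1302855 per library, and 3 counts in 1 library corresponded to 2.29 to 4.23 CPM (read counts scaled to a library of 1e+06 with TMM-adjusted library sizes). TBPH was not called in loss of function (log2 fold -0.38, adjusted p = 0.468, edgeR) or gain of function (log2 fold -0.18, adjusted p = 0.794, edgeR) against wild type, so its counts bore out neither label. Directions below are those of libraries as labelled. Neuron markers (5 genes, elav among them) summed to 664 and 618 CPM in wild type, 537 to 707 CPM in loss of function and 409 and 571 CPM in gain of function, and glia markers (4 genes, repo among them) to 400 to 501 CPM in single libraries. Muscle markers (4 genes) summed to 15070 and 22230 CPM in wild type and 6569 to 13790 CPM in loss of function. In gain of function they summed to 2755 and 6285 CPM, and 3 of the 4 were called lower, beside 2.19% of all tested genes (edgeR). Each of these 3 calls was lost in some of the alternative fits. Photoreceptor markers (4 genes) summed to 576 and 786 CPM in wild type, 269 to 779 CPM in loss of function and 148 and 280 CPM in gain of function. All of these markers had counts in every library. Among the 4 fat body markers, whose sums were 12420 and 14360 CPM in wild type and 15210 to 31390 CPM in the other libraries, Lsp2 had 0 to 2 counts. The part of these tissue differences in the values below was not tested.

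Over the 8 libraries rk had 331 counts, CcapR 66, Eh 65, ETHR 40, Ccap 28, pburs 8 and burs 6. Levels of different genes were compared per kilobase of exon, with exon lengths from the Release 6 annotation, a later build than the one the files were counted on. On that scale Eh was highest at 11.3 CPM per kb (95% exact Poisson interval 8.71 to 14.4, counting error only), close to the neuronal gene elav at 10.8 CPM per kb. Next came rk at 7.51 CPM per kb, with an interval of 6.73 to 8.37. Ccap at 2.74 and CcapR at 2.70 CPM per kb could not be told apart, with intervals of 1.82 to 3.96 and 2.09 to 3.44. The lowest levels were those of pburs (1.79 CPM per kb), burs (1.15 CPM per kb) and ETHR (1.08 CPM per kb), whose intervals overlap. The intervals of pburs (0.775 to 3.54) and burs (0.421 to 2.5) also overlap those of Ccap and CcapR. Among the 14427 genes with an exon length, Eh stood at percentile 59.3, rk at 48.7 and the other 5 between 16.2 and 27.6. Library values of Eh ran from 2.4 to 26 CPM per kb and overlapped those of rk, at 5.65 to 10 CPM per kb, so the order of these 2 genes did not hold in each library.

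**Figure D1:**
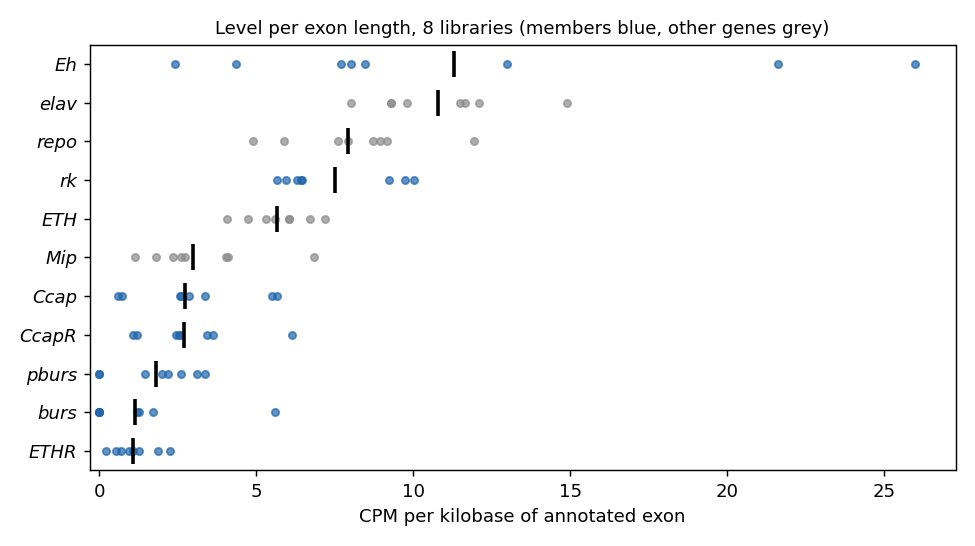
Level per kilobase of annotated exon (x axis, CPM per kb) for the 7 ecdysis genes (blue) and 4 other genes (grey). Points are the 8 libraries and black bars the level over all libraries pooled. Eh spreads from 2.4 to 26 CPM per kb. The pooled levels of burs and ETHR are near 1 CPM per kb, with libraries at 0 to 5.58 and 0.202 to 2.24 CPM per kb.

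Eh, the eclosion hormone gene, had counts of 5 and 5 for delta142/Df, 2 and 4 for delta23/delta142, 19 and 10 for gain of function, and 16 and 4 for wild type. Normalised, that is 5.96 and 5.43, 1.69 and 3.06, 15.2 and 9.14, and 18.3 and 5.64 CPM. The 4 loss-of-function libraries were all low, and the lower of the wild-type libraries lay among them. Against wild type the log2 fold was -1.70 in loss of function (SE 0.60, 95% interval -3.01 to -0.40). Its unadjusted p was 0.0145 and its Benjamini-Hochberg adjusted p = 0.144 by the quasi-likelihood test of edgeR, so Eh was not called. Without wild-type replicate 1 the log2 fold was -0.58, so its size rested on that library. In delta23/delta142 alone the log2 fold was -2.31 (adjusted p = 0.16, edgeR), and in delta142/Df -1.10 (adjusted p = 0.445, edgeR). Gain of function gave -0.01 (95% interval -1.27 to 1.25, adjusted p = 0.995, edgeR). Without wild-type replicate 1 these 3 values were -1.19, 0.03 and 1.12. Loss of function and gain of function did not overlap, at up to 5.96 CPM against at least 9.14 CPM, with a log2 fold of -1.70 (SE 0.56) between them. That contrast was not called either (unadjusted p = 0.0104, adjusted p = 0.847, edgeR).

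Ccap, the gene of the cardioactive peptide, was counted 3 and 3 times in delta142/Df, 5 and 1 in delta23/delta142, 4 and 1 under gain of function, and 6 and 5 for wild type. The CPM were 3.57 and 3.26, 4.22 and 0.765, 3.2 and 0.914, and 6.86 and 7.05. Every other library lay below both wild-type libraries, on counts of 1 to 6 per library. Ccap did not pass the filter on low counts, so pooled counts were compared. The ratio to wild type was 0.406 in loss of function (12 against 11 counts, 95% exact interval 0.164 to 1.02) and 0.307 in gain of function (5 against 11 counts, interval 0.0837 to 0.959). Without gain-of-function replicate 1 the second ratio was 0.132, and without replicate 2 it was 0.461. These intervals cover counting error only. A two-sided exact permutation test over libraries gave p = 0.133 for loss of function, the smallest that 4 against 2 libraries allow. Without the filter, edgeR gave an adjusted p = 0.48 in loss of function and adjusted p = 0.434 in gain of function.

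The bursicon genes were at the edge of detection. burs had counts of 3 and 1 for delta142/Df, 0 and 1 for delta23/delta142, 1 and 0 for gain of function, and 0 and 0 for wild type. Its pooled level was 2.27 CPM in delta142/Df (4 counts, 95% exact Poisson interval 0.619 to 5.82) and 0.401 CPM in delta23/delta142 (1 count). The count of 0 in wild type has a 95% exact Poisson interval of 0 to 2.33 CPM, which overlaps the delta142/Df interval. Overlap of intervals is not itself a test, and no difference was detected at this depth. A two-sided exact permutation test of loss of function against wild type gave p = 0.4. pburs had counts of 1 and 1, 2 and 0, 1 and 2, and 0 and 1 in the same order of groups. Its pooled ratio to wild type was 1.49 in loss of function on 4 against 1 counts, with an exact interval of 0.148 to 73.4. In gain of function the ratio was 2.03 on 3 against 1 counts, with an interval of 0.163 to 107. Both directions turned without wild-type replicate 1, to ratios of 0.667 and 0.907, and the second ratio was 1.27 without gain-of-function replicate 2. No library held more than 3 counts of either subunit, and over all 8 libraries burs had 6 and pburs 8. The 2 subunit genes, whose products pair in the hormone, stood at 0.734 and 0.978 CPM over all libraries, with exact Poisson intervals of 0.269 to 1.6 and 0.422 to 1.93.

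**Figure D2:**
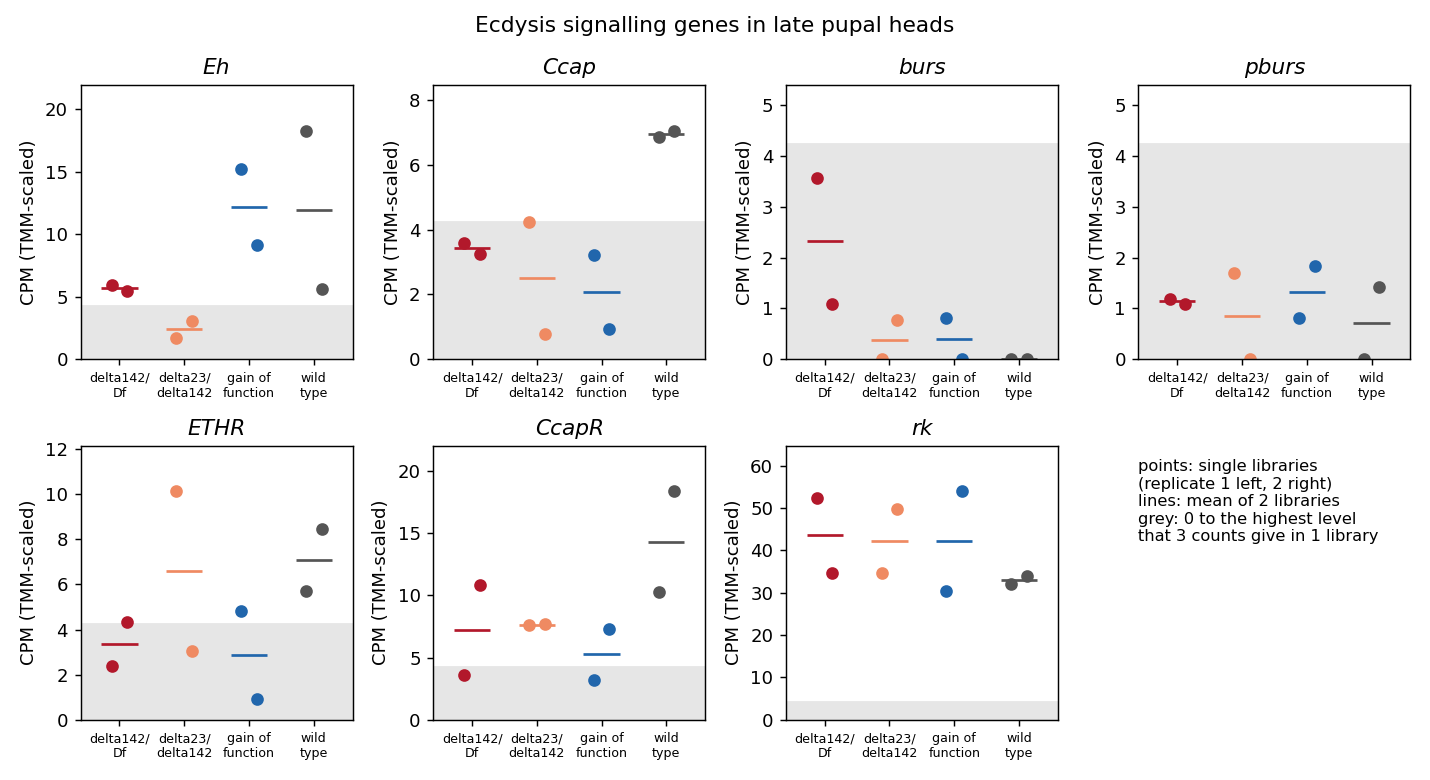
TMM-scaled CPM (y axis) of the 7 genes in each library, by group; points are single libraries and lines the mean of 2. The grey band ends at 4.23 CPM, the highest level that 3 counts give in 1 library, set by wild-type replicate 2. burs and pburs lie inside it throughout and rk lies above it throughout. Ccap lies above it in the wild-type libraries alone, but delta23/delta142 replicate 1 is just inside it at 4.22 CPM. Each other library has a lower 3-count level, which is 2.53 CPM for that delta23/delta142 library.

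ETHR, the receptor through which ecdysis triggering hormone acts, had counts of 2 and 4 for delta142/Df, 12 and 4 for delta23/delta142, 6 and 1 for gain of function, and 5 and 6 for wild type. In CPM these were 2.38 and 4.34, 10.1 and 3.06, 4.81 and 0.914, and 5.71 and 8.46. Loss of function spanned the wild-type values, while both gain-of-function libraries lay below them. The pooled ratio to wild type was 0.745 in loss of function (22 against 11 counts, exact interval 0.346 to 1.7) and 0.43 in gain of function (7 against 11 counts, interval 0.141 to 1.22). The first ratio was 0.47 without delta23/delta142 replicate 1, which held 12 of the 22 counts. The second was 0.132 without gain-of-function replicate 1 and 0.692 without replicate 2. Without the filter, edgeR gave an adjusted p = 0.779 and adjusted p = 0.577 for these comparisons.

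CcapR, a G protein-coupled receptor for CCAP, had counts of 3 and 10 for delta142/Df, 9 and 10 for delta23/delta142, 4 and 8 for gain of function, and 9 and 13 for wild type. The CPM were 3.57 and 10.9, 7.6 and 7.65, 3.2 and 7.31, and 10.3 and 18.3. Gain of function lay below wild type without overlap, and 1 delta142/Df library reached into the wild-type range. Relative to wild type CcapR had a log2 fold of -0.90 for loss of function (SE 0.54, 95% interval -2.07 to 0.27, adjusted p = 0.38, edgeR). Under gain of function it was -1.43 (SE 0.65, interval -2.84 to -0.01, unadjusted p = 0.0488, adjusted p = 0.253, edgeR). Without gain-of-function replicate 2 the second value was -2.09. CcapR was not called in any of the 6 comparisons.

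rk, which encodes the leucine-rich repeat receptor for bursicon, was the one gene of the 7 with more than 20 counts in each library. Its counts were 44 and 32 for delta142/Df, 41 and 65 for delta23/delta142, 38 and 59 for gain of function, and 28 and 24 for wild type. These gave 52.4 and 34.8, 34.6 and 49.7, 30.4 and 53.9, and 32 and 33.9 CPM. All 4 loss-of-function libraries lay above both wild-type libraries, the closest at 34.6 against 33.9 CPM, and gain of function spanned them. The mean was 42.9 ± 9.53 CPM in loss of function (SD, n = 4), 42.2 ± 16.6 CPM in gain of function and 32.9 ± 1.32 CPM in wild type (SD, n = 2 each). Relative to wild type rk had a log2 fold of 0.38 for loss of function (SE 0.32, 95% interval -0.32 to 1.08, adjusted p = 0.554, edgeR) and 0.35 in gain of function (SE 0.36, interval -0.44 to 1.14, adjusted p = 0.641, edgeR). Without gain-of-function replicate 2 the second value was -0.11. The lower ends of these intervals correspond to 0.8 and 0.737 of the wild-type level, and the upper ends to 2.12-fold and 2.2-fold. Between the deficiency and delta23/delta142 the log2 fold of rk was 0.04 (interval -0.71 to 0.79, adjusted p = 0.983, edgeR). Between loss and gain of function the value was 0.03 (interval -0.61 to 0.68, adjusted p = 0.999, edgeR).

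In the Release 6 annotation 527 of the 5386 exonic bases of rk lie opposite the gene NimC2 (CG18146 in the files, 48 to 96 counts), and 78 of the 1249 of Ccap lie opposite CG6972 (61 to 166 counts). Whether counting used strand is unstated in these sources, so reads from those stretches cannot be told apart. No exon of another gene overlaps the other 5.

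Across the 9252 genes that passed the filter on low counts, 3 of the 7 genes (Eh, CcapR and rk) were tested. None of the 3 was called at an adjusted p of 0.05 in any of the 6 comparisons by edgeR or limma-voom. DESeq2 called none either, but gave no adjusted p for Eh and CcapR in the 4 comparisons with wild type. Of all tested genes, 2.19% were called in loss of function against wild type, 3.11% in gain of function, 1.68% in delta142/Df, 0.832% in delta23/delta142, and 0% between the loss-of-function genotypes and between loss and gain of function (edgeR). For the last 2 comparisons 9.41% and 5.48% of all tested genes had an unadjusted p under 0.05. At an unadjusted p under 0.05, 1 of the 3 was lower in loss of function (Eh) and 1 in gain of function (CcapR), against 11.8% and 11% of all tested genes lower. Eh was also lower by that measure in delta23/delta142 (8.59% of all tested genes lower) and in loss against gain of function (2.52%). Counting all 7 genes, 2 (28.6%) did not overlap wild type in loss of function (Ccap lower, rk higher), against 31.2% of all tested genes. Under gain of function 3 of the 7 (42.9%) did not overlap (Ccap, CcapR and ETHR, all lower), against 49.3% of all tested genes. Between loss and gain of function 1 of the 7 (14.3%, Eh) did not overlap, against 11.7%. These shares of the 7 are near those of all tested genes. The sets are unlike, since Ccap, ETHR, burs and pburs were below the filter that the tested genes passed.

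**Figure D3:**
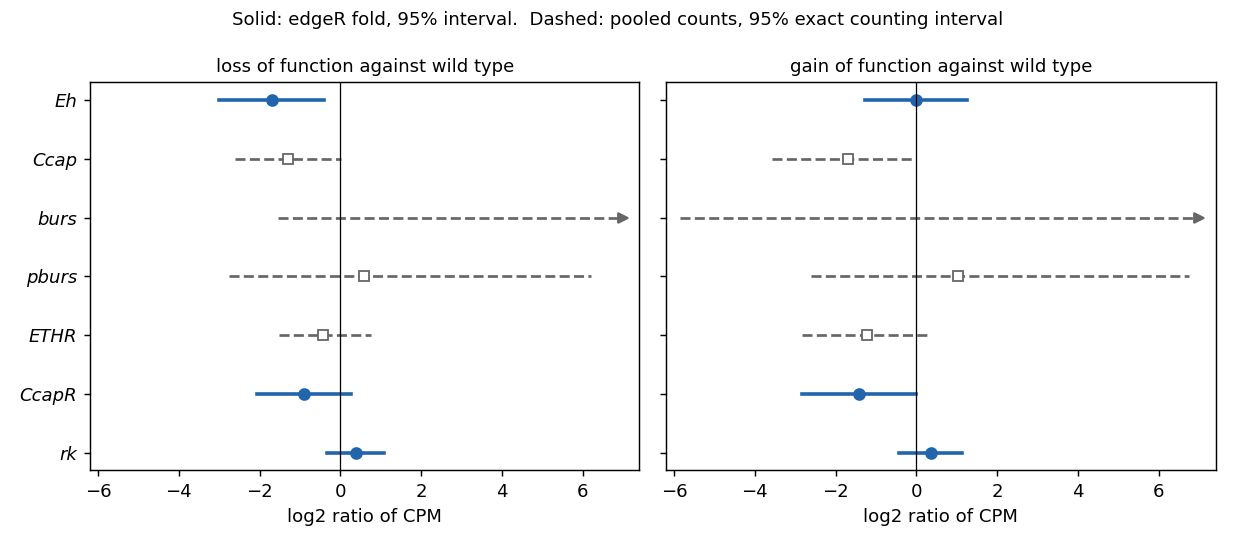
Log2 ratio of CPM to wild type (x axis) for each of the 7 genes in loss of function (left) and gain of function (right). Solid lines are edgeR folds with 95% intervals for the 3 tested genes and dashed lines pooled count ratios with 95% exact counting intervals, arrows marking an interval with no upper end; the intervals of rk take in 0 in both panels, that of Eh lies below 0 for loss of function, and those of Ccap and CcapR for gain of function.

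Summed over the 7 genes, levels were 73.1 and 74.8 CPM in wild type and 58.5 to 74 CPM in the 6 other libraries, to which rk gave 30.4 to 53.9 CPM. The other 6 genes together gave 41.1 and 40.9 CPM in wild type (36 and 29 counts). They gave 20.3 and 26.1 CPM in delta142/Df, 25.3 and 15.3 CPM in delta23/delta142, and 28 and 20.1 CPM in gain of function. Each other library was thus below both wild-type libraries for this sum, on 17 to 35 counts a library. Leaving rk out was chosen after the values were seen, and the sum was not tested. Different genes made it up, since Eh gave 18.3 of the 41.1 CPM in wild-type replicate 1 and CcapR gave 18.3 of the 40.9 CPM in replicate 2.

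**Figure D4:**
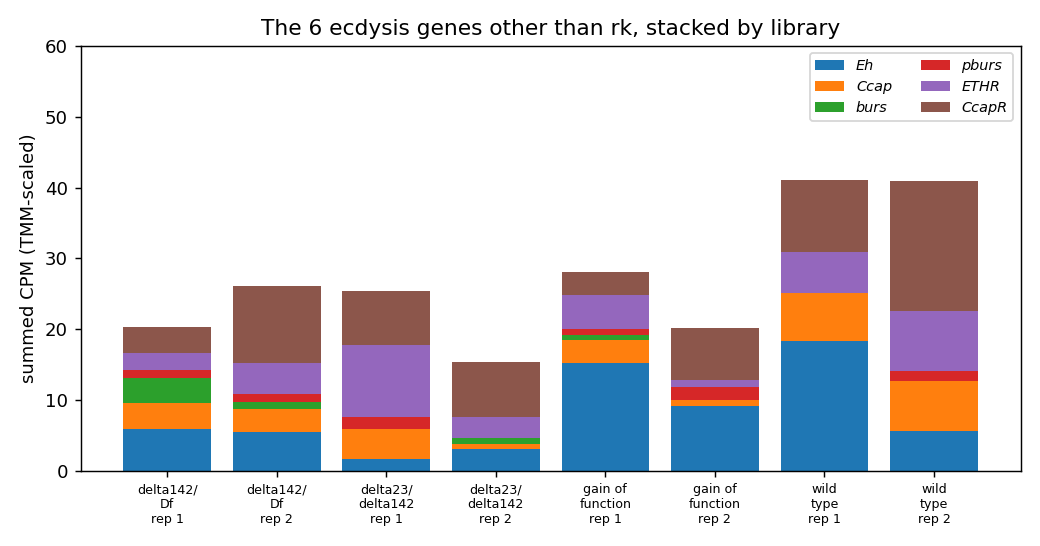
Stacked TMM-scaled CPM (y axis) of the 6 ecdysis genes other than rk in each library (x axis). The wild-type bars reach 41.1 and 40.9 CPM and those of the 6 other libraries 15.3 to 28 CPM, with Eh the largest block in wild-type replicate 1 and CcapR in replicate 2.

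Of 15 other genes of the ecdysis circuit, most of them for signals and receptors, 6 passed the filter. None was called in loss or gain of function against wild type by edgeR, DESeq2 or limma-voom. At an unadjusted p under 0.05 by edgeR, 1 was lower in each, against 11.8% and 11% of all tested genes lower. In both it was crc (log2 fold -0.36 and -0.38), which encodes neither a signal nor a receptor and was named after its values were seen. The median log2 fold of the 6 genes was 0.59 in loss of function and 0.25 in gain of function, beside 0.00 and 0.01 over all tested genes. ETH, the gene of the triggering hormone itself, had 3 to 6 counts in every library and a pooled level of 5.67 CPM per kb. Its pooled ratio to wild type was 0.958 in loss of function (exact interval 0.382 to 2.71) and 0.966 in gain of function (interval 0.332 to 2.99). Mip, which encodes the myoinhibitory peptides that some CCAP neurons also make, had 2 to 8 counts, with pooled ratios of 0.786 (interval 0.339 to 1.97) and 0.451 (interval 0.132 to 1.42). Fmrf, the FMRFamide gene, was named after its values were seen. It had 3 and 4 counts in delta142/Df, 0 and 2 in delta23/delta142, and 0 in each of the other 4 libraries.

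Relatives of rk and of bursicon were 5 further genes for leucine-rich repeat receptors or cystine-knot hormones, of which Fsh (now Lgr1, a glycoprotein hormone receptor) alone passed the filter. It was not called in loss of function (log2 fold 1.04, adjusted p = 0.352, edgeR) or gain of function (log2 fold 1.41, unadjusted p = 0.0415, adjusted p = 0.231, edgeR), nor by limma-voom, and DESeq2 gave it no adjusted p. Its counts were 9 and 14 for delta142/Df, 5 and 7 for delta23/delta142, 12 and 12 for gain of function, and 3 and 3 for wild type. Every other library was at or above the higher wild-type library in CPM except delta23/delta142 replicate 1, at 4.22 against 4.23. CG34411 (now Lgr4), another leucine-rich repeat receptor gene, is outside the rule for named genes and was added after its values were seen. It had CPM of 1.19 and 2.17 for delta142/Df, 5.91 and 6.12 for delta23/delta142, 6.41 and 5.48 for gain of function, and 6.86 and 9.88 for wild type, on 1 to 8 counts, with wild type highest. Lgr3, the receptor for the insulin-like peptide Ilp8, had 1 to 7 counts, Gpb5 had 2 to 7 and CG17878 (now Gpa2) had 0 in all libraries.

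Peptides are cut, amidated and packed into dense-core vesicles before release, and 11 of 12 genes for these steps were tested. None was called in loss of function (1 lower at an unadjusted p under 0.05 by edgeR, and none by DESeq2 or limma-voom). Under gain of function 1 of the 11 was called lower, beside 2.19% of all tested genes called lower. This was ia2, which encodes a transmembrane protein of dense-core vesicles. Gain of function held it at 80.9 and 145 CPM, against 263 and 343 CPM for wild type, without overlap. The log2 fold was -1.42 (SE 0.27, adjusted p = 0.0225, edgeR). DESeq2, limma-voom and edgeR with a replicate block also called it lower. The call was lost without wild-type replicate 1 or 2 and with the 2 groups fitted alone (adjusted p = 0.0511, edgeR). With 1 library left out the log2 fold ran from -1.9 to -1.05. In loss of function ia2 was at 154 to 263 CPM, with a log2 fold of -0.52 (adjusted p = 0.228, edgeR). The median log2 fold of the 11 genes was 0.04 in loss of function and -0.22 in gain of function. Neuron markers summed to 409 and 571 CPM with gain of function against 664 and 618 CPM for wild type. Of these 5 genes, 3 were lower at an unadjusted p under 0.05, against 11% of all tested genes lower, and none was called (edgeR). The median log2 fold of the 5 was -0.56, and 1 of them, elav, was higher (log2 fold 0.33). The part of neuron markers in the value of ia2 was not tested.

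Downstream of rk, all 13 listed genes for cyclic AMP signalling and cuticle tanning were tested. In loss of function edgeR called 1 lower, beside 1.58% of all tested genes called lower. At an unadjusted p under 0.05 by edgeR, 1 was lower there, against 11.8% of all tested genes lower. Another 2 were higher, for which no share of all tested genes is given, so they are not read as a result. In gain of function edgeR called none. At an unadjusted p under 0.05, 3 were lower in that comparison, against 11% of all tested genes lower, and 1 was higher, likewise without a share. There limma-voom called none either, while DESeq2 called 2 lower (Pu and y), for which no share of all genes is given. The gene called by edgeR was CG42345 (now stw, laccase 2, which oxidises catechols in the cuticle). It was at 580 and 652 CPM for delta142/Df, 538 and 662 CPM for delta23/delta142, 502 and 728 CPM for gain of function, and 1139 and 952 CPM for wild type. Every other library was below both wild-type libraries. CG42345 had a log2 fold of -0.78 in loss of function (SE 0.18, adjusted p = 0.0498, edgeR) and -0.77 in gain of function (adjusted p = 0.0792, edgeR). In loss of function the call was lost without any 1 of the 6 libraries compared (adjusted p = 0.0506 to 0.333), with DESeq2 (adjusted p = 0.0747) and with limma-voom (adjusted p = 0.0717). Under gain of function it passed with no filter (adjusted p = 0.0366, edgeR) and without gain-of-function replicate 2 (adjusted p = 0.0101).

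ple, which encodes tyrosine hydroxylase, the first enzyme of tanning, had a wide spread. It was at 700.5 and 1393 CPM for delta142/Df, 141 and 435 CPM for delta23/delta142, 103 and 282 CPM for gain of function, and 74.3 and 102 CPM for wild type. The groups did not overlap wild type, the closest pair being 103 CPM in gain of function and 102 CPM in wild type. ple was not called in loss of function (log2 fold 2.65, SE 0.79, unadjusted p = 0.0219, adjusted p = 0.175, edgeR), and DESeq2 gave an adjusted p = 0.0174 there. In gain of function the log2 fold was 1.13 (SE 0.83, adjusted p = 0.536, edgeR), and 0.25 without gain-of-function replicate 2. Ddc, dopa decarboxylase of the same pathway, differed more between replicates than between groups, at 45.3 and 139, 38.8 and 86.5, 29.6 and 260.3, and 38.9 and 97.3 CPM in the same order of groups. Relative to wild type its log2 fold was 0.19 for loss of function (adjusted p = 0.954, edgeR) and 1.10 in gain of function (adjusted p = 0.701, edgeR). With 1 library left out these ran from -0.34 (wild-type replicate 1) to 0.99 (wild-type replicate 2), and from -1.17 (gain-of-function replicate 2) to 1.97 (gain-of-function replicate 1). Both ple and Ddc were higher in replicate 2 than in replicate 1 in all 4 groups.

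**Figure D5:**
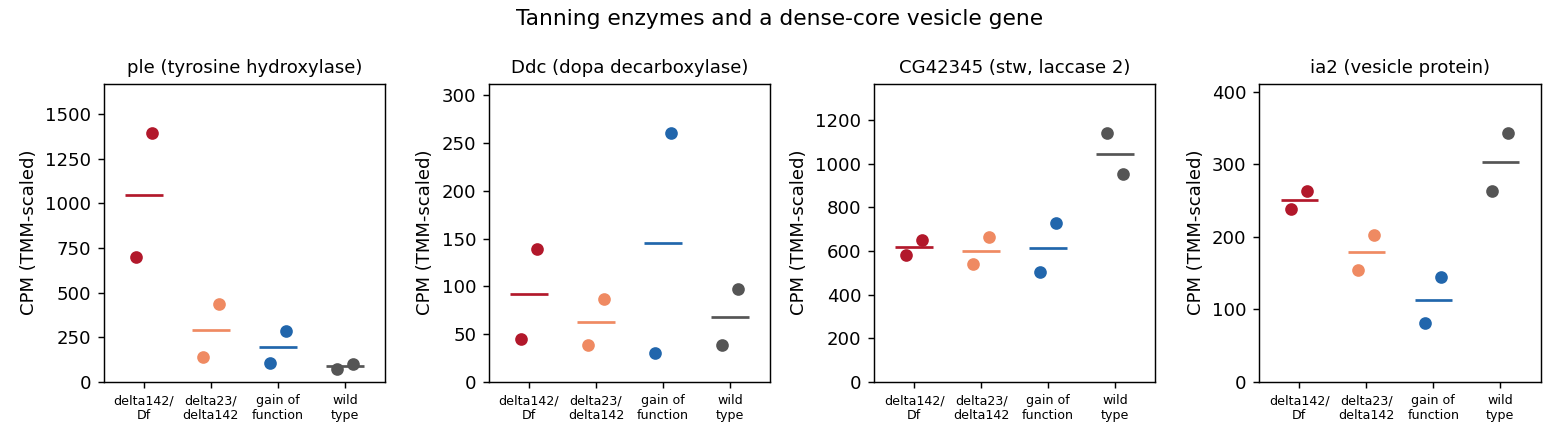
TMM-scaled CPM (y axis, from 0) of 3 tanning enzyme genes and of ia2 in each library, by group; points are single libraries and lines the mean of 2. ple runs from 74.3 to 1393 CPM with wild type lowest, CG42345 is highest in wild type at 952 and 1139 CPM, and the replicates of Ddc lie far apart.

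The genes whose log2 CPM followed each tested gene most closely were sought among the 9098 genes whose log2 CPM averaged 3 or more, over the 8 libraries. For rk these were Rad23 (Pearson r = 0.979) and CG10182 (r = 0.929), for Eh Tsp3A (r = 0.941) and CG6459 (r = 0.94), and for CcapR CG7277 (r = 0.96) and Hsc70-1 (r = 0.948). The points share libraries and depth, 8 points against 9098 genes leave room for high values, and they are given as a description. None of these genes belongs to the ecdysis lists.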

How the data were processed

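The authors deposited 1 file of whole-number read counts per gene for each of 8 libraries, with no normalization. Per the labels' protocols, RNA came from 150 pooled heads, RiboMinus depleted the ribosomal RNA, and SOLiD whole-transcriptome libraries were sequenced. Per the submitters' processing notes the counts come from HTSeq on the dm3 build. Sources used here do not name the aligner, the annotation, the strand setting or the treatment of multiply mapping reads.

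Groups came from the titles. Genes were kept by filterByExpr (minimum count 10, minimum total 15), scaled by TMM and fitted with 4 group means over all 8 libraries (4 residual degrees of freedom) in edgeR 4.0.16 under R 4.3.3. Calls used the quasi-likelihood test at a Benjamini-Hochberg adjusted p of 0.05 over 9252 genes. Standard errors are the log2 fold divided by the square root of F. log2 CPM used a prior count of 2. Alternatives used DESeq2 1.42.0, limma 3.58.1, other scalings and filters, a replicate block and each library left out. DESeq2 left some genes of low counts without an adjusted p, and these are not called.

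Genes below the filter were compared by pooled counts with Clopper-Pearson 95% intervals, as planned. Exon lengths and overlaps came from the Ensembl release of the Release 6 assembly, matched by symbol for 95.3% of genes, and since that build is not the files' build its coordinates are left out. No sequences were used here. The 7 genes and all lists were chosen with earlier results of these data known. Named genes were the 7, TBPH, list genes called in loss or gain of function, 8 set relatives, and the 2 genes most like each tested member.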

Additional observations from a re-analysis of the deposited data

How the results depend on the processing

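No ecdysis gene that was tested was called in any of the 6 comparisons under the alternatives run, leaving out each library included. All 7 were tested with no filter, and 1 to 4 under the other settings, and DESeq2 gave Eh and CcapR no adjusted p against wild type. Of the 4 genes below the filter, the number whose pooled-count interval left out 1 ranged from 0 to 1 in loss of function and from 0 to 2 in gain of function with 1 library left out, against 0 and 1 with all. In gain of function against wild type the log2 fold of Eh, near 0, turned to 0.007 with no filter, 0.01 with DESeq2, 0.092 with limma-voom, 0.004 with the 2 groups fitted alone and 0.032 with the replicate block, and ranged from -0.549 to 1.124 with 1 library left out. That of rk between the loss-of-function genotypes was -0.001 with library totals.

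With 1 library left out, some directions of genes that were not called turned. rk ranged from -0.105 to 0.718 in gain of function, -0.278 to 0.348 between the genotypes and -0.33 to 0.482 between loss and gain. CcapR ranged from -1.03 to 0.508 between the genotypes, Eh from -1.649 to 0.025 in delta142/Df, TBPH from -0.447 to 0.055 in gain of function, and Ddc from -0.338 to 0.985 in loss and -1.165 to 1.969 in gain of function. The causes were not tested.

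Counts over all genes moved more. In loss of function 57 were called higher and 146 lower, against 116 and 287 with no filter, 17 and 67 with limma-voom, 176 and 485 with the groups fitted alone, and 4 to 199 and 2 to 499 with 1 library left out. In gain of function 85 and 203 were called, against 155 and 290, 49 and 195, 39 and 71, and 3 to 200 and 0 to 457. In delta142/Df 52 and 103 were called, against 108 and 210, 2 and 6, and 107 and 225, and in delta23/delta142 23 and 54, against 63 and 125, 2 and 12, and 248 and 450.

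Differences between the replicates of a group correlated at -0.041 to 0.172 between groups over all tested genes. ple, Ddc, Pu and b were higher in replicate 2 in all 4 groups, and no share of all tested genes with that pattern is given. The correlations are a description of whether replicate numbers pair the libraries, and no formal test of pairing was run. With the replicate block, ple was called higher in loss of function (adjusted p = 0.00193, edgeR), in each genotype and between them, Pu lower in loss of function, gain of function and delta23/delta142, and CG42345 lower in loss of function, while 42 genes were called higher and 104 lower in delta23/delta142, and none of Eh, CcapR and rk was called. Depth limits burs and pburs most, since no library held more than 3 counts of either.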
